A study of Mus musculus with 6 samples.

Results

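Genes of leukotriene and prostaglandin synthesis and sensing, 10 in all, were followed in a mouse myeloid progenitor cell line that was transduced with either of 2 transcription factors. The genes are Alox5, Alox15, Alox5ap, Lta4h, Ltc4s, Ltb4r1, Ptgs1, Ptgs2, Ptges and Hpgds. They were chosen by name as the core of the pathway, with earlier results of these data known. Their probes were found through the RefSeq accession that the array design gives for each probe. This matched all 10 genes with 11 probes, of 20263 genes named on the array in all. The cells are Tot2, one line derived from an Irf8 knockout mouse, so every group, control cells included, carries that knockout. The IRF8-labelled group was transduced with the retrovirus MSCV-IRF8FLAG, the KLF4-labelled group with MSCV-KLF4FLAG, and the control group with the empty MSCV-puro vector. All groups were grown with 5 ng/ml GM-CSF, selected with 2 µg/ml puromycin starting 48 hr after infection, and harvested on day 4. Each group has 2 arrays, 1 from each of 2 experiments that the submitters describe as independent, giving 6 one-colour arrays of total RNA. Which experiment an array belongs to is taken here from its replicate number, which also coincided with the slide.

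At the main settings, the widest contrasts between the 2 transduced groups lay in Alox5 and Hpgds, and the bounds that follow are of those settings. With normexp background correction, which raises dim signals, Ptgs1 had the wider contrast. IRF8-labelled cells then differed from KLF4-labelled cells by -2.53 log2 for Ptgs1, -1.82 for Alox5 and 1.79 for Hpgds. Alox5, the lipoxygenase that starts leukotriene synthesis, was well above background only on the KLF4-labelled arrays, where it was at least 8.84-fold higher than in control cells. Hpgds, the haematopoietic prostaglandin D2 synthase, was well above background only on the IRF8-labelled arrays, at least 8.21-fold higher than in control cells. IRF8-labelled cells also had 7.71-fold less Ptgs1 (the constitutive cyclooxygenase COX-1), 2.77-fold less Lta4h and 2.03-fold less Ltc4s than control cells, and 3.82-fold more Alox5ap and 1.77-fold more of the leukotriene B4 receptor Ltb4r1. The terminal prostaglandin E2 synthase Ptges did not pass the test in any comparison, and Alox15 and Ptgs2 were below background on all 6 arrays.

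As background, leukotrienes and prostaglandins are both made from arachidonic acid released from membrane phospholipids. 5-Lipoxygenase, with the help of its membrane partner FLAP, converts arachidonic acid to leukotriene A4, which leukotriene A4 hydrolase turns into leukotriene B4 and leukotriene C4 synthase into leukotriene C4. The cyclooxygenases convert arachidonic acid to prostaglandin H2, from which terminal synthases make the separate prostaglandins. In blood cells the leukotriene enzymes are known from neutrophils, mast cells, eosinophils and macrophages, and leukotriene B4 is known as an attractant of neutrophils.

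The promoters of the genes with the widest changes are shown because the transduced factors bind known DNA elements: IRF8 the interferon-stimulated response element and, with an ETS factor, a composite element, and KLF4 GC-rich boxes. RefSeq (GRCm38.p6) gave a window of 250 bases before and 50 bases from the transcription start for 8 of the 10 genes, all but Alox5ap and Alox15. Each window runs 5′ to 3′ on the strand of the gene, in lower case, and capitals mark a match to one of 3 motifs searched on both strands. The motifs are GAAANNGAA for the interferon-stimulated response element core, GGAANNGAA for the ETS-IRF composite element and CCNCNCCC for a KLF-type GC box. The windows printed are Alox5, at chr6:116461129-116461428 on the minus strand, Hpgds, at chr6:65144681-65144980 on the minus strand, Ptgs1, at chr2:36230176-36230475 on the plus strand, and Lta4h, at chr10:93453146-93453445 on the plus strand.
Alox5: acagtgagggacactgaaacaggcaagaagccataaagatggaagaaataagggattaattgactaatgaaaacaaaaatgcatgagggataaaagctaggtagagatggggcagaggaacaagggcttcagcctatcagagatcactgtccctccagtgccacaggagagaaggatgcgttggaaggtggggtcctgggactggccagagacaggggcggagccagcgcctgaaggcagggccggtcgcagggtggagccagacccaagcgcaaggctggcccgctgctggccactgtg
Hpgds: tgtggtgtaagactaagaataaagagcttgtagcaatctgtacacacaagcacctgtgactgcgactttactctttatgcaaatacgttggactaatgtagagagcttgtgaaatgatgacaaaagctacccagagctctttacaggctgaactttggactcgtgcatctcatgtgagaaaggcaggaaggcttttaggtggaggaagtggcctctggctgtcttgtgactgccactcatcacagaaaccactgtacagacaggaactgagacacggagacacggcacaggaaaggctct
Ptgs1: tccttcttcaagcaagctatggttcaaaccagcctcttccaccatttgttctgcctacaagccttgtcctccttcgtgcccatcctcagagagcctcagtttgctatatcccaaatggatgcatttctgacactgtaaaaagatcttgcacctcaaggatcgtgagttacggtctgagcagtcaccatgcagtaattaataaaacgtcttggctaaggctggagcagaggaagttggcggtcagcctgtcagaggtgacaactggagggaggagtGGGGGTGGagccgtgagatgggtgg
Lta4h: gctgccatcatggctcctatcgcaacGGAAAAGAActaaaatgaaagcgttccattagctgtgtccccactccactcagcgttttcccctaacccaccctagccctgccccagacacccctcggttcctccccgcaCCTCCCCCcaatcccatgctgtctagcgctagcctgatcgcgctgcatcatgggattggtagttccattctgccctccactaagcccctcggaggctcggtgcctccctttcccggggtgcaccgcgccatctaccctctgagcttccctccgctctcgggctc

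The interferon-stimulated response element core occurred in 8.56% of the 32851 windows of the RefSeq table and in 0 of the 8 genes' windows. The ETS-IRF composite element occurred in 8.24% of all windows and in 1 of the 8, Lta4h, as GGAAAAGAA with its first base at position -224 from the start. The KLF-type GC box occurred in 49.5% of all windows and in 5 of the 8: once in Lta4h, 2 times in Ltc4s, 4 times in Ltb4r1, once in Ptgs1 and 5 times in Ptges. The windows of Alox5, Hpgds and Ptgs2 held none of the 3 motifs. A match describes letters in the window and is not a measured binding site, and a window without one says nothing of the factor.

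The labels were checked first on the transduced genes. The Irf8 probe read 2.94 and 3.05 on the IRF8-labelled arrays, 2.18 and 2.16 on the KLF4-labelled arrays and 0.49 and 0.64 on the control arrays. These values, and those that follow, are relative log2 signals: the log2 of the processed spot intensity minus the log2 of the 75th percentile of that array. The Klf4 probe read 4.46 and 4.61 on the IRF8-labelled arrays, -1.56 and -1.33 on the KLF4-labelled arrays and -1.62 and -1.28 on the control arrays. Klf4 was thus 63.2-fold higher in IRF8-labelled cells than in control cells and differed by 0.00 log2 between KLF4-labelled and control cells (limma adjusted p = 0.987). Where either probe lies in its transcript was not stated, so whether it reads the transduced sequence is unknown, and every direction below rests on the labels.

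Arrays of a group correlated at r of 0.9928 to 0.9954 over the genes tested, and 47.1% to 56.8% of probes were well above background. With 2 arrays a group, an exact permutation test cannot go below p = 0.333, so differences were tested with limma across 13247 genes, called at a Benjamini-Hochberg adjusted p below 0.05. The p-values measure the spread between these 2 experiments of one cell line. For a test, the 2 arrays of some group had to be well above background, which 8 of the 10 genes met, 6 of them on all 6 arrays. The cells were checked against marker lists. Neutrophil markers, which include the granule genes Mpo and Elane, summed to 433 and 340 times the 75th percentile on the IRF8-labelled arrays, 1438 and 960 on the KLF4-labelled arrays and 1990 and 1505 on the control arrays. Monocyte and macrophage markers summed to 668 and 554 on the IRF8-labelled arrays, 155 and 158 on the KLF4-labelled arrays and 18.1 and 18.2 on the control arrays. The progenitor receptor gene Kit was not well above background on any array.

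**Figure D1:**
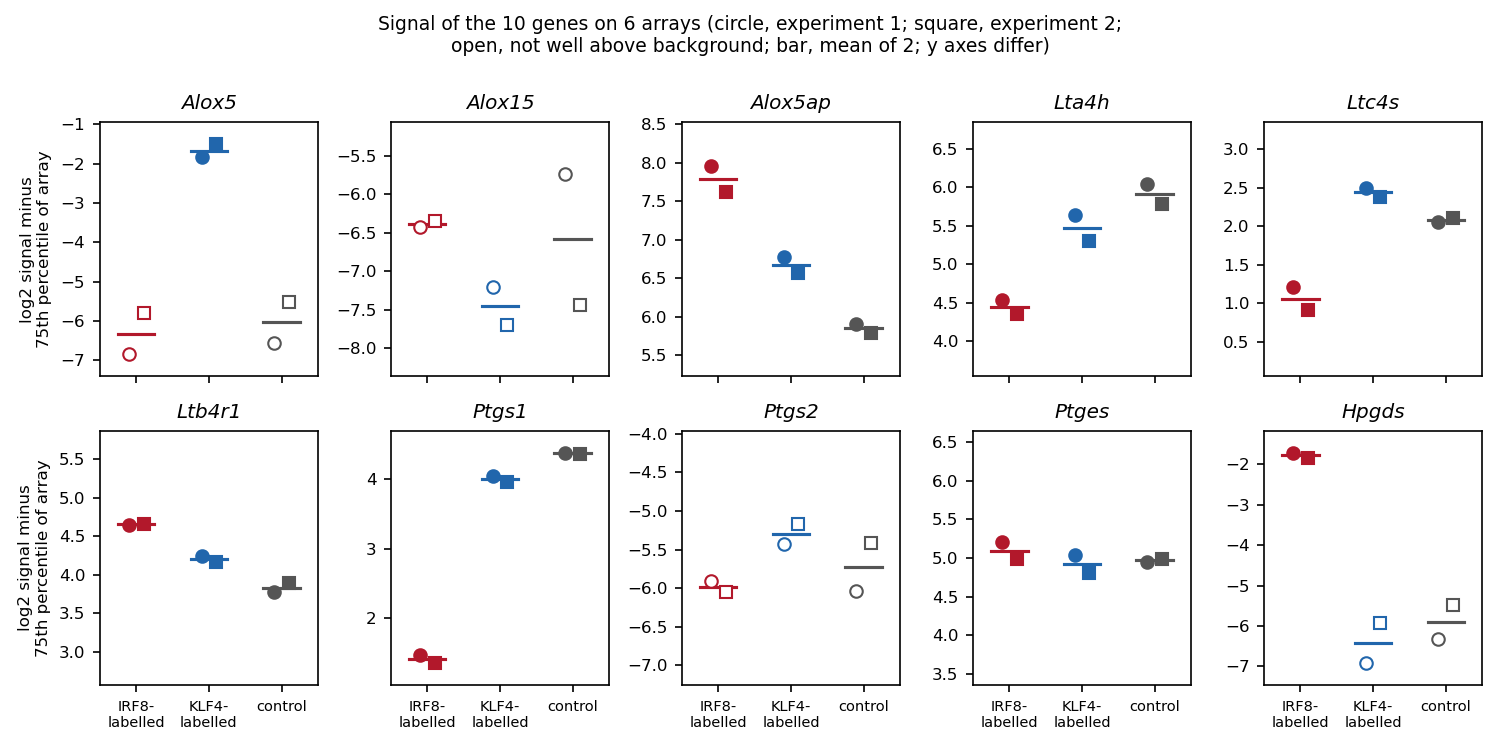
Relative log2 signal (log2 processed intensity minus the log2 75th percentile of the array) of the 10 genes on each of 6 arrays, with IRF8-labelled, KLF4-labelled and control groups from left to right; circles and squares are the 2 experiments, open symbols are not well above background, bars are means of 2, and each panel has its own axis. Alox5 has filled symbols only in the KLF4-labelled group and Hpgds only in the IRF8-labelled group, and Alox15 and Ptgs2 have open symbols throughout.

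Among the lipoxygenases, Alox5 read -6.85 and -5.80 on the IRF8-labelled arrays, -1.84 and -1.50 on the KLF4-labelled arrays and -6.56 and -5.52 on the control arrays. Both KLF4-labelled arrays stood above every other array, and the IRF8-labelled and control arrays overlapped. In unscaled intensity, Alox5 gave 3.78 and 15.8 on the IRF8-labelled arrays, 150 and 344 on the KLF4-labelled arrays and 5.85 and 18.6 on the control arrays. The fitted difference of KLF4-labelled from control cells was 4.37 ± 0.48 log2 (SE, n = 2 each; limma adjusted p = 0.00501). Since no control array was above background, the fold is a bound, taken against the higher of the probe's own signal and the lowest signal above background on each array: at least 8.84-fold higher. IRF8-labelled cells were at least 10.1-fold lower than KLF4-labelled cells (fitted difference -4.65 ± 0.48 log2, limma adjusted p = 0.00152), and for IRF8-labelled against control cells both groups were below background, so no fold is given. Alox5 passed the filter only through the group where it was high, so its place among the genes tested already required a difference.

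Alox15, the 12/15-lipoxygenase known from resident macrophages and eosinophils, read -6.43 and -6.35 on the IRF8-labelled arrays, -7.20 and -7.69 on the KLF4-labelled arrays and -5.73 and -7.44 on the control arrays. None of these was well above background, so the gene was not tested and no order is read from the values.

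Alox5ap, Lta4h and Ltc4s act with or after 5-lipoxygenase. Alox5ap, which encodes FLAP, read 7.96 and 7.62 on the IRF8-labelled arrays, 6.78 and 6.56 on the KLF4-labelled arrays and 5.91 and 5.80 on the control arrays. The 3 groups stood apart in that order without overlap. IRF8-labelled cells were 3.82-fold higher than control cells (1.93 ± 0.15 log2, SE, limma adjusted p = 0.000372), and the difference was 2.05 and 1.82 within the 2 experiments. IRF8-labelled cells were 2.17-fold higher than KLF4-labelled cells (1.12 ± 0.15 log2, limma adjusted p = 0.00348), a call lost only with spike-in scaling (limma adjusted p = 0.0572) of 16 alternatives. KLF4-labelled cells were 1.76-fold higher than control cells (0.81 ± 0.15 log2, limma adjusted p = 0.0264). That last call was lost under 6 of 16 alternatives, with limma adjusted p between 0.0809 and 0.123 when either KLF4-labelled or either control array was left out.

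Lta4h, the hydrolase that makes leukotriene B4, went the other way in IRF8-labelled cells. It read 4.54 and 4.35 on the IRF8-labelled arrays, 5.64 and 5.30 on the KLF4-labelled arrays and 6.04 and 5.79 on the control arrays. IRF8-labelled cells were 2.77-fold lower than control cells (-1.47 ± 0.16 log2, SE, limma adjusted p = 0.00113) and 2.03-fold lower than KLF4-labelled cells (-1.02 ± 0.16 log2, limma adjusted p = 0.00571). KLF4-labelled cells differed from control cells by -0.45 ± 0.16 log2, with a 95% interval of -0.87 to -0.02 and a limma adjusted p of 0.119. With the experiment as a replicate block that adjusted p was 0.0124, the lowest of 16 alternatives that ran up to 0.980, and the difference was -0.40 and -0.49 within the 2 experiments.

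Ltc4s, the glutathione-conjugating synthase of leukotriene C4, read 1.21 and 0.91 on the IRF8-labelled arrays, 2.49 and 2.38 on the KLF4-labelled arrays and 2.06 and 2.10 on the control arrays. The IRF8-labelled arrays were the low ones, and no 2 groups overlapped. IRF8-labelled cells were 2.03-fold lower than control cells (-1.02 ± 0.13 log2, SE, limma adjusted p = 0.00161) and 2.60-fold lower than KLF4-labelled cells (-1.38 ± 0.13 log2, limma adjusted p = 0.00104). The difference of KLF4-labelled from control cells, 0.36 ± 0.13 log2 with a 95% interval of 0.04 to 0.68, did not pass (limma adjusted p = 0.107).

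The one receptor of the set, Ltb4r1, encodes the high-affinity leukotriene B4 receptor that guides leukocytes. It read 4.65 and 4.67 on the IRF8-labelled arrays, 4.25 and 4.17 on the KLF4-labelled arrays and 3.78 and 3.89 on the control arrays. The groups did not overlap, and their order was that of Alox5ap. IRF8-labelled cells were 1.77-fold higher than control cells (0.83 ± 0.09 log2, SE, limma adjusted p = 0.000986), a call lost under 1 of 16 alternatives, spike-in scaling (limma adjusted p = 0.143). KLF4-labelled cells were 1.30-fold higher than control cells (0.38 ± 0.09 log2, limma adjusted p = 0.0445), a call that held under 6 of 16 alternatives and under none that left out an array. IRF8-labelled cells were 1.36-fold higher than KLF4-labelled cells (0.45 ± 0.09 log2, limma adjusted p = 0.0113), a call lost with median scaling (limma adjusted p = 0.136), with spike-in scaling (limma adjusted p = 0.668), and without either IRF8-labelled array or without the second KLF4-labelled array (limma adjusted p between 0.0611 and 0.0675).

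Of the cyclooxygenases, Ptgs1 had the largest measured fall of the set against control cells. It read 1.48 and 1.36 on the IRF8-labelled arrays, 4.04 and 3.96 on the KLF4-labelled arrays and 4.37 and 4.36 on the control arrays. IRF8-labelled arrays lay far below the other 4. IRF8-labelled cells were 7.71-fold lower than control cells (-2.95 ± 0.09 log2, SE, limma adjusted p = 0.000026) and 5.99-fold lower than KLF4-labelled cells (-2.58 ± 0.09 log2, limma adjusted p = 0.000111), and both calls held under all 16 alternatives. KLF4-labelled cells were 1.29-fold lower than control cells (-0.36 ± 0.09 log2, limma adjusted p = 0.0494). That call held under 4 of 16 alternatives and under none that left out an array, where limma adjusted p lay between 0.0975 and 0.206.

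Ptgs2, the inducible cyclooxygenase COX-2, read -5.91 and -6.05 on the IRF8-labelled arrays, -5.43 and -5.16 on the KLF4-labelled arrays and -6.04 and -5.42 on the control arrays. It was not well above background on any array and was not tested. Cells harvested on day 4 without an added inflammatory stimulus are the only state measured here.

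Of the terminal prostaglandin synthases, Ptges, the microsomal prostaglandin E synthase, read 5.20 and 4.99 on the IRF8-labelled arrays, 5.03 and 4.80 on the KLF4-labelled arrays and 4.95 and 4.99 on the control arrays. The groups overlapped in each comparison. The difference from control cells was 0.13 ± 0.13 log2 in IRF8-labelled cells (SE; 95% interval -0.20 to 0.45; limma adjusted p = 0.433) and -0.05 ± 0.13 log2 in KLF4-labelled cells (95% interval -0.38 to 0.28; limma adjusted p = 0.787). IRF8-labelled and KLF4-labelled cells differed by 0.18 ± 0.13 log2 (95% interval -0.15 to 0.50; limma adjusted p = 0.304). Ptges was the gene with 2 probes: the dimmer one gave differences of 0.54, 0.70 and -0.16 log2 in the same 3 comparisons, and was not well above background on 1 control array. Under other scalings the sign of both differences from control cells turned, with quantile or median scaling for KLF4-labelled cells and spike-in scaling for IRF8-labelled cells.

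Hpgds read -1.71 and -1.84 on the IRF8-labelled arrays, -6.91 and -5.92 on the KLF4-labelled arrays and -6.33 and -5.49 on the control arrays. Only the IRF8-labelled arrays were well above background, and the other 4 overlapped. IRF8-labelled cells were at least 8.21-fold higher than control cells (fitted difference 4.13 ± 0.42 log2, SE, limma adjusted p = 0.000827) and at least 10.5-fold higher than KLF4-labelled cells (4.64 ± 0.42 log2, limma adjusted p = 0.0010). Like Alox5, Hpgds passed the filter only through the group where it was high. With normexp background correction, which raises dim signals, the fitted differences were smaller: 1.59 log2 for Hpgds in IRF8-labelled against control cells and 1.70 log2 for Alox5 in KLF4-labelled against control cells, both still called (limma adjusted p = 0.00523 and 0.00969). Both lie under the bounds given, which are 3.04 log2 for Hpgds and 3.14 log2 for Alox5. Those bounds thus hold for the main settings only. Over the 15 alternatives that gave a value, the highest limma adjusted p was 0.00576 for Hpgds and 0.0457 for Alox5 in these comparisons. In total RNA of a culture, fewer cells of a type and less RNA per cell cannot be told apart, for these genes and for all the others.

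**Figure D2:**
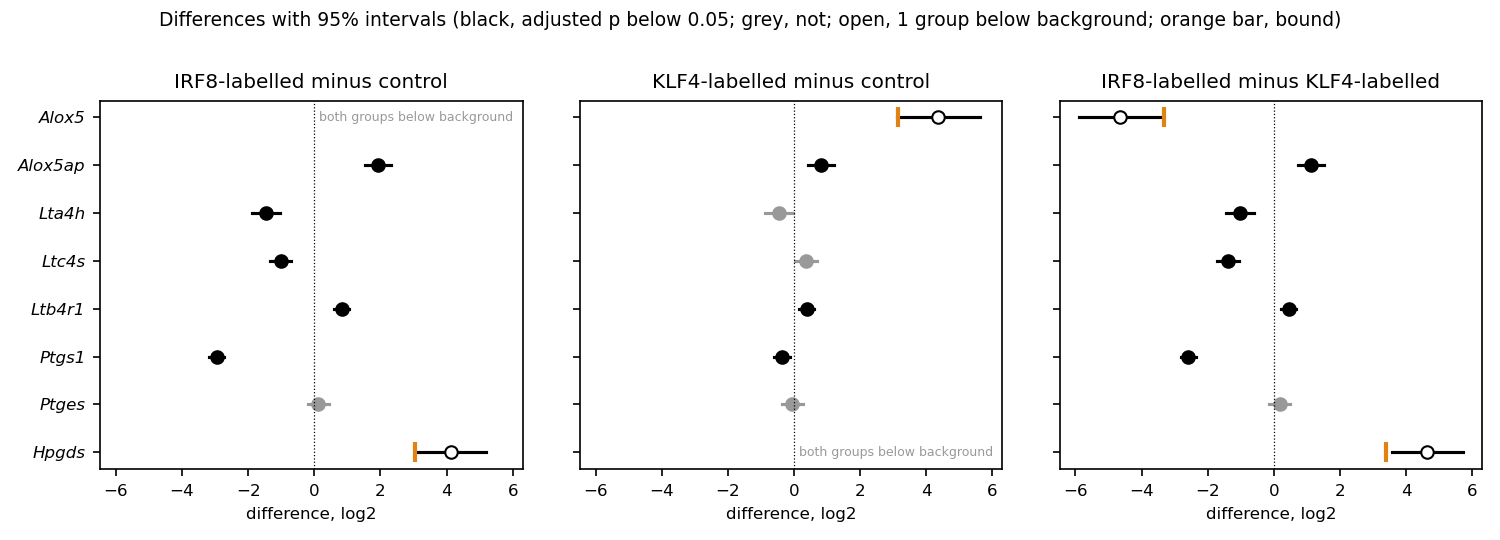
Fitted difference in log2 (points) with 95% intervals (lines) for the 8 genes tested, in IRF8-labelled minus control, KLF4-labelled minus control and IRF8-labelled minus KLF4-labelled cells; black is an adjusted p below 0.05, grey is not, open points have 1 group below background, and orange bars are the bound. Ptgs1 lies at -2.95 in the left panel and at -0.36 in the middle one, and the bounds of Alox5 and Hpgds lie on opposite sides of 0 in the right panel.

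Counted over the set, 6 of the 8 genes tested were called in IRF8-labelled against control cells, 3 higher and 3 lower. Over all 13247 genes tested 61.5% were called, 25.8% higher and 35.7% lower, so a share this high is usual for this comparison. In KLF4-labelled against control cells, 4 of the 8 were called, 3 higher and 1 lower, beside 19.2% of all genes tested (10.4% higher, 8.86% lower); without 1 array or another the count was 1 to 2. In IRF8-labelled against KLF4-labelled cells 7 of the 8 were called, 3 higher and 4 lower, beside 50.5% of all genes tested (23.7% higher, 26.8% lower). The arrays of the 2 groups did not overlap for 6, 6 and 7 of the 8 genes in these 3 comparisons, beside 80.3%, 64.9% and 75.5% of all genes tested. Alox5 and Hpgds passed the filter only through the group where they were high, so their part in these counts was largely set by the filter. Among genes above background on all 6 arrays, 5, 3 and 5 of 6 members were called in the same order. Beside them stood 7480, 2493 and 6160 of 11665 genes. The median difference over the 8 genes was -0.08 log2 in IRF8-labelled against control cells, beside -0.13 over all genes, and 0.15 in KLF4-labelled against control cells, beside -0.16. With Alox5 and Hpgds at their bounds and left out where both groups were below background, the medians were 0.13 and 0.36. In IRF8-labelled against KLF4-labelled cells the median was -0.42 log2 either way, beside -0.01 over all genes. The comparisons share the control or a transduced group, so their counts are not independent of each other.

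The rest of the pathway was read from a list of 69 genes, of which 68 were on the array and 47 were tested. In IRF8-labelled against control cells 20 were higher and 14 lower, beside 61.5% of all genes called, with a median difference of 0.19 log2 (-0.10 with bounds) beside -0.13 over all genes. In KLF4-labelled against control cells 12 were higher and 1 lower, beside 19.2% of all genes called (median -0.04, or -0.03 with bounds, beside -0.16 over all genes). With the experiment as a replicate block, the count of 13 called in that comparison was 25, 16 higher and 9 lower. Fpr2, Dpep2 and Ptgis, among the 12, had no control array above background. They passed the filter only through groups where they were high, so their calls were largely set by it. Of 37 listed genes above background on all 6 arrays, 9 were higher and 2 lower there, beside 1040 and 1453 of 11665 genes. In IRF8-labelled against KLF4-labelled cells 14 were higher and 13 lower, beside 50.5% of all genes called (median 0.01, beside -0.01 over all genes). The counts by role that follow are of few genes each and are read against the same shares: for IRF8-labelled against control cells 25.8% of all genes higher and 35.7% lower, and for KLF4-labelled against control cells 10.4% higher and 8.86% lower. No role is shown to stand apart from them.

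Of 11 genes tested that supply or handle arachidonic acid, 3 were higher and 6 lower in IRF8-labelled than in control cells. Pla2g4a, the cytosolic phospholipase A2 that releases arachidonic acid, read 0.75 and 1.19 on the IRF8-labelled arrays, 2.44 and 2.62 on the KLF4-labelled arrays and 2.37 and 2.78 on the control arrays. It was 3.04-fold lower in IRF8-labelled than in control cells (limma adjusted p = 0.00205) and 2.94-fold lower than in KLF4-labelled cells (limma adjusted p = 0.0034). Mgll, a monoacylglycerol lipase that also frees arachidonic acid, moved in opposite directions: it was 3.38-fold lower in IRF8-labelled than in control cells (limma adjusted p = 0.000477) and 2.10-fold higher in KLF4-labelled than in control cells (limma adjusted p = 0.0113). The 2 differed directly by 7.09-fold, IRF8-labelled lower (limma adjusted p = 0.000260), and all 3 Mgll probes above background gave these signs. Pla2g7, the secreted hydrolase of platelet-activating factor, was above background only in IRF8-labelled cells, at least 30.1-fold higher than in control cells (limma adjusted p = 0.000172). Pla2g7 passed the filter only through the IRF8-labelled arrays, where it was high. A dimmer second Pla2g7 probe differed by 3.77 log2 in the same direction, which is less than the first probe's bound of 4.91 log2. The size of the difference thus depends on the probe.

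Beside Ltc4s stand other glutathione transferases, enzymes that process leukotrienes and a gene whose product binds 5-lipoxygenase, Cotl1. Of these, 4 of 5 tested were higher and 1 lower in IRF8-labelled than in control cells. Mgst2, which can also make leukotriene C4, was the lower one, at 4.92 and 4.77 on the IRF8-labelled arrays, 6.45 and 6.23 on the KLF4-labelled arrays and 6.61 and 6.47 on the control arrays. That was a fall of 3.25-fold from control cells (limma adjusted p = 0.000273). Mgst3 was 2.96-fold higher (limma adjusted p = 0.00302) and Cotl1, whose product binds and stabilises 5-lipoxygenase, was 2.11-fold higher (limma adjusted p = 0.00653). Dpep2, a dipeptidase that converts leukotriene D4 to leukotriene E4, was below background on both control arrays. It was at least 27.0-fold higher in IRF8-labelled cells (limma adjusted p = 0.000101) and at least 14.7-fold higher in KLF4-labelled cells (limma adjusted p = 0.000523). Dpep2 passed the filter only through the transduced groups, where it was high, so its place among the genes tested already required a difference. Aloxe3, the epidermis-type lipoxygenase, was 7.79-fold higher in IRF8-labelled than in control cells (limma adjusted p = 0.00148), with 1 of 2 control arrays above background. With the other control array set to the lowest signal above background on it, a setting chosen after seeing the data, that fold was 4.97.

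Among the receptors beside Ltb4r1, 2 of 4 tested were higher in each transduced group than in control cells. Cysltr1, the receptor of the cysteinyl leukotrienes, read 3.73 and 3.92 on the IRF8-labelled arrays, 0.33 and 0.55 on the KLF4-labelled arrays and -0.82 and -0.72 on the control arrays. It was 24.1-fold higher in IRF8-labelled cells (limma adjusted p = 0.000020) and 2.31-fold higher in KLF4-labelled cells (limma adjusted p = 0.00373). Fpr2, a formyl peptide receptor that also binds lipoxin A4, read -5.50 and -4.78 on the IRF8-labelled arrays, -1.28 and -1.13 on the KLF4-labelled arrays and -6.23 and -6.87 on the control arrays. It was at least 12.2-fold higher in KLF4-labelled than in control cells (limma adjusted p = 0.000557) and 15.3-fold lower in IRF8-labelled cells than in KLF4-labelled ones (limma adjusted p = 0.000715), with 1 IRF8-labelled array above background. With the other IRF8-labelled array set to the lowest signal above background on it, the second fold was 11.3, and Fpr2 passed the filter only through the KLF4-labelled arrays. Its difference of IRF8-labelled from control cells was called (1.41 log2, limma adjusted p = 0.0131) but has no fold, as 1 IRF8-labelled and no control array was above background, and it lay under the level needed for a bound.

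Downstream of the cyclooxygenases, 2 of 7 other prostanoid synthases were higher and 3 lower in IRF8-labelled than in control cells, while 2 were higher in KLF4-labelled cells. Tbxas1, the thromboxane A2 synthase, read 3.21 and 3.30 on the IRF8-labelled arrays, 2.63 and 2.86 on the KLF4-labelled arrays and 1.13 and 1.29 on the control arrays. It was 4.13-fold higher in IRF8-labelled cells (limma adjusted p = 0.000161) and 2.90-fold higher in KLF4-labelled cells (limma adjusted p = 0.00147). Ptgis, the prostacyclin synthase, was at least 41.8-fold higher in IRF8-labelled cells (limma adjusted p = 0.000026) and at least 3.70-fold higher in KLF4-labelled cells (limma adjusted p = 0.00176), with no control array above background. Ptgis, like Dpep2, passed the filter only through the transduced groups, where it was high. Ptgds, the lipocalin-type prostaglandin D2 synthase and so the counterpart of Hpgds, was 2.74-fold lower in IRF8-labelled than in control cells (limma adjusted p = 0.00416), with 1 IRF8-labelled array above background, and 2.27-fold lower with the other set to the lowest signal above background on it. Ptges3, a cytosolic prostaglandin E synthase also known as the cochaperone p23, was 1.68-fold lower (limma adjusted p = 0.00116).

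Of 8 prostanoid receptors tested, 3 were higher and 2 lower in IRF8-labelled than in control cells. For prostaglandin E2, Ptger2 was 5.30-fold higher (limma adjusted p = 0.000045), Ptger3 was 5.25-fold lower (limma adjusted p = 0.000071) and Ptger4 was 2.76-fold lower (limma adjusted p = 0.000385). Ptger2 read 0.16 and 0.26 on the IRF8-labelled arrays, -1.61 and -1.71 on the KLF4-labelled arrays and -2.21 and -2.19 on the control arrays. Ptger3 read -3.56 and -3.71 on the IRF8-labelled arrays, -1.40 and -1.50 on the KLF4-labelled arrays and -1.31 and -1.17 on the control arrays. Ptgir, the prostacyclin receptor, was 2.55-fold higher in IRF8-labelled cells (limma adjusted p = 0.000264) and 3.34-fold higher in KLF4-labelled cells (limma adjusted p = 0.000451).

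Of 10 genes of eicosanoid export and breakdown that were tested, 5 were higher and 2 lower in IRF8-labelled than in control cells. Ephx1, the microsomal epoxide hydrolase, read 5.07 and 5.16 on the IRF8-labelled arrays, -0.68 and -0.59 on the KLF4-labelled arrays and -4.13 and -3.60 on the control arrays. It was 506-fold higher in IRF8-labelled cells (limma adjusted p = 0.000011) and 9.37-fold higher in KLF4-labelled cells (limma adjusted p = 0.000548). A second Ephx1 probe gave differences of 2.86 and 0.04 log2 where the first gave 8.98 and 3.23. The size in IRF8-labelled cells thus depends on the probe, and in KLF4-labelled cells so does whether a rise is seen at all. On the first control array the first probe's -4.13 lay near the lowest signal above background, -4.32. Cyp4f18, a cytochrome P450 that inactivates leukotriene B4 in mouse neutrophils, was 7.44-fold higher in IRF8-labelled cells than in control cells (limma adjusted p = 0.000073).

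**Figure D3:**
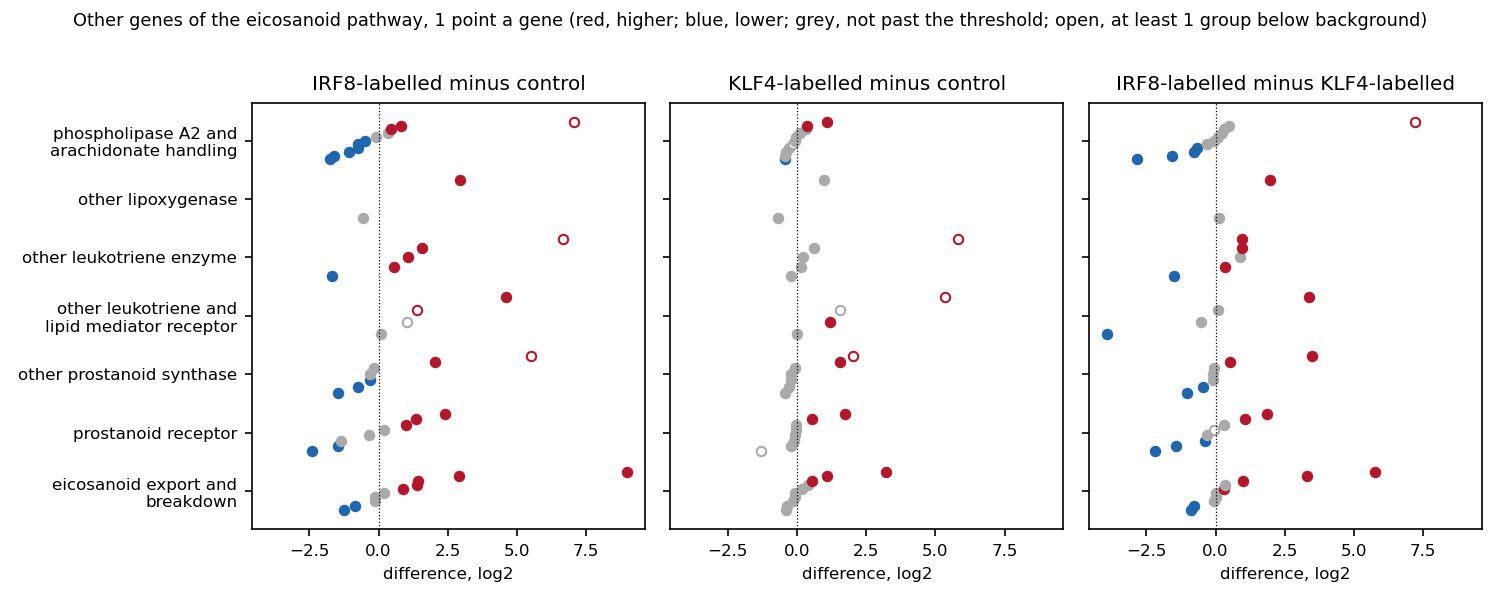
Fitted difference in log2 (horizontal axis) of the other eicosanoid pathway genes that were tested, 1 point a gene, grouped by role from phospholipases to export and breakdown, in the same 3 comparisons; red is higher, blue is lower, grey did not pass, and open points have at least 1 group below background. Red and blue mix in most roles in the left panel, where 20 genes were higher and 14 lower, while the middle panel has 12 red points and 1 blue.

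The genes whose pattern was nearest to that of a member were found by Euclidean distance between the 6 log2 signals, each gene centred on its own mean, over the 6 arrays. Nearest to Alox5 were Chit1 (distance 0.739) and Il1f9 (0.817), and nearest to Hpgds were Ly86 (0.807) and Gpr85 (0.816). Alox5 and Hpgds were above background on only 2 of the 6 arrays, so these distances rest in large part on values below background, and no order among the neighbours is read from them. Nearest to Ptgs1 were Abca13 (0.276) and Nfe2 (0.276). Within the set the nearest pairs were Ltb4r1 with Ptges (0.735) and Lta4h with Ltc4s (0.853), but 2479 and 2165 other genes lay nearer to Ltb4r1 and Lta4h than these partners did. The members nearest to Alox5 and Hpgds lay at 4.44 (Ltc4s) and 3.72 (Alox5ap).

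**Figure D4:**
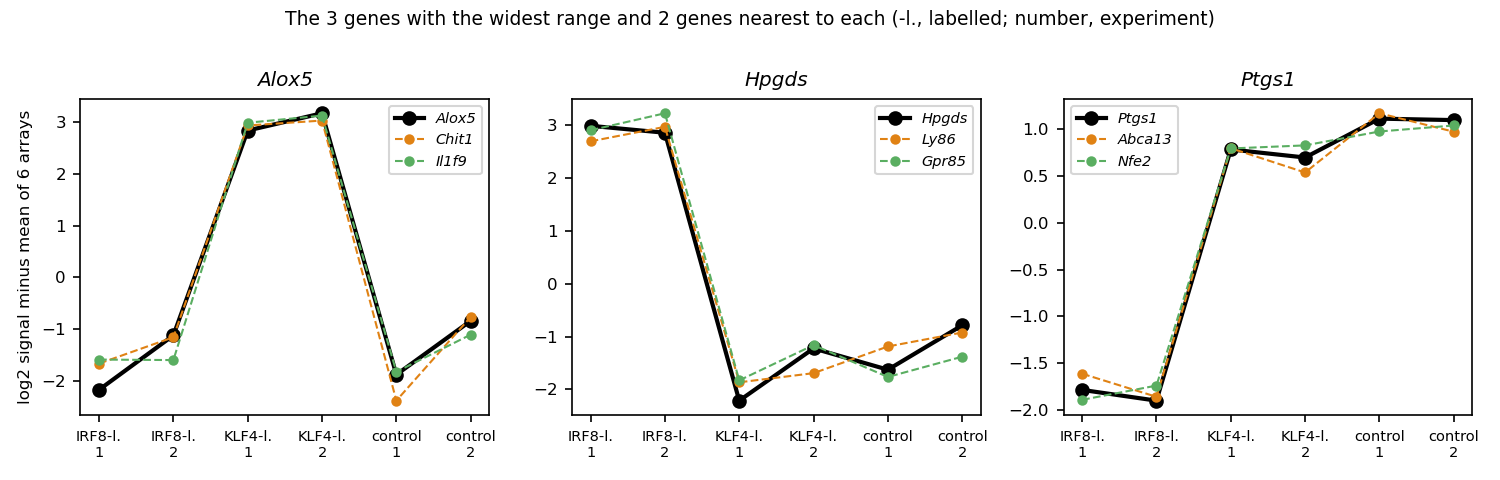
Log2 signal minus the gene's own mean over 6 arrays (vertical axis) for Alox5, Hpgds and Ptgs1 in black and the 2 genes nearest to each in colour, with arrays of the IRF8-labelled, KLF4-labelled and control groups from left to right. Alox5 and its neighbours are high on the 2 KLF4-labelled arrays, Hpgds and its neighbours on the 2 IRF8-labelled arrays, and Ptgs1 and its neighbours are low on the 2 IRF8-labelled arrays.

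Because these enzymes are also known from other blood cells, marker lists of those cells are given beside them. Of the neutrophil markers, 11 of 12 tested were lower in IRF8-labelled than in control cells, while 10 of 11 monocyte and macrophage markers were higher. Of all genes tested, 25.8% were higher and 35.7% lower in this comparison, and its marker counts below are read beside these shares. In KLF4-labelled against control cells 5 of 12 neutrophil markers tested were lower and 1 higher, and 8 of 11 monocyte and macrophage markers were higher. Over all genes tested, the shares for KLF4-labelled against control cells were 10.4% higher and 8.86% lower. Of 12 mast cell and basophil markers on the array, 6 were not well above background on any array, among them the mast cell receptor genes Kit, Fcer1a and Ms4a2. That list summed to 3.56 and 3.06 times the 75th percentile on the IRF8-labelled arrays, 6.39 and 5.21 on the KLF4-labelled arrays and 5.26 and 5.34 on the control arrays. Of 5 tested, 2 were higher and 2 lower in IRF8-labelled than in control cells: Tpsb2, a mast cell tryptase, differed by 1.68 log2, and Mcpt8, a basophil protease, by -4.33 log2. The eosinophil list of 9 genes, with Prg3 and Il5ra below background on every array, summed to 0.348 and 0.313 on the IRF8-labelled arrays, 1.65 and 1.79 on the KLF4-labelled arrays and 1.48 and 1.66 on the control arrays. Of 7 tested, 0 were higher and 3 lower in IRF8-labelled than in control cells. The like KLF4-labelled and control sums hide opposite changes. There 2 were higher and 2 lower in KLF4-labelled cells, with Ear2 differing by 4.03 log2 and Epx by -1.15 log2. The megakaryocyte and platelet list summed to 2.57 and 2.81 on the IRF8-labelled arrays, 8.08 and 8.80 on the KLF4-labelled arrays and 0.337 and 0.372 on the control arrays, with the platelet genes Pf4, Ppbp, Gp9, Gp6 and Tubb1 below background on all 6. The dendritic cell list summed to 170 and 153 on the IRF8-labelled arrays, 91.9 and 66.7 on the KLF4-labelled arrays and 103 and 88.5 on the control arrays. These sums rest in large part on Siglech, which was not called in any comparison. It read 6.60 and 6.22 on the IRF8-labelled arrays, 6.50 and 6.02 on the KLF4-labelled arrays and 6.68 and 6.46 on the control arrays. Of 9 dendritic cell markers tested, 7 were higher and 0 lower in IRF8-labelled than in control cells. In KLF4-labelled against control cells 3 were higher and 0 lower. The fibroblast list, which stands for virus packaging cells, summed to 11.5 and 13.3 on the IRF8-labelled arrays, 8.26 and 9.0 on the KLF4-labelled arrays and 3.80 and 4.58 on the control arrays. These sums rest in large part on Acta2. It read 3.49 and 3.71 on the IRF8-labelled arrays, 2.61 and 2.75 on the KLF4-labelled arrays and 1.82 and 2.10 on the control arrays. Thy1 read -4.01 and -4.34 on the IRF8-labelled arrays, 0.95 and 1.09 on the KLF4-labelled arrays and -3.68 and -3.14 on the control arrays. Of 4 fibroblast markers tested, 2 were higher and 1 lower in IRF8-labelled than in control cells, and 2 higher and 0 lower in KLF4-labelled cells. Pdgfra, Pdgfrb, Dcn and Lum were not well above background on any array. The lymphocyte list summed to 14.4 and 11.1 on the IRF8-labelled arrays, 11.5 and 8.97 on the KLF4-labelled arrays and 12.1 and 12.0 on the control arrays. The part of these lists in the results on the 10 genes was not tested.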

How the data were processed

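Total RNA of 3 groups, 2 arrays each, was measured on one-colour Agilent arrays. The deposited files hold the processed spot intensity (background-subtracted by Agilent Feature Extraction 10.7.3.1, per the file headers). The authors' deposited value table, a linear signal per probe whose factors differ by array, served as an alternative. Here, log2 intensity minus each array's 75th percentile over non-control spots was used. Spots marked as outliers were left out, spots of a probe were averaged, and a gene took its brightest probe. Probes were named through RefSeq accessions (GRCm38.p6); 26728 of 28353 probes with such an accession matched. All 6 arrays entered 1 fit in limma 3.58.1 (R 4.3.3), tested on simulated data, with Benjamini-Hochberg adjustment over 13247 genes. The array files give no mean signal, so normexp used the median signal. Replicate number coincided with slide, and same-numbered arrays deviated together from their group means (r = 0.391, 0.282 and 0.321), so the numbers pair the arrays. That same-numbered arrays also share an experiment is taken from the numbers, and slide and experiment cannot be told apart. The number of arrays limits the precision. All 10 members were named whatever their values; of the wider list, up to 4 called genes a role and comparison without overlap, by size. Of the genes nearest in pattern, 2 for each of 3 members are given, and the third is not reported here. Members and lists were chosen with earlier results of these data known.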

Additional observations from a re-analysis of the deposited data

How the results depend on the processing

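Over the alternatives to the settings above, 307 of the differences of the 8 genes tested (those with at least 1 group above background) kept direction and call, 35 lost the call, 1 gained it and 5 changed sign. In KLF4-labelled against control cells, the count of called members (4) was 2 with median scaling, 1 with spike-in scaling, 2 with normexp, 1 without the filter on dim probes and 1 to 2 without an array. The wider pathway count there (13) was 25 with the replicate block, which uses the pairing, 8 with spike-in scaling and 8 to 11 without an array. The count over all genes there (2547; 1373 higher, 1174 lower) was 6744 with the replicate block, 1459 with median scaling (1260 higher, 199 lower), 907 with spike-in scaling (806 higher, 101 lower), 1052 with normexp, 974 without the filter and 883 to 1499 without an array. With spike-in scaling, which moves the median of all genes to -0.26 log2 in IRF8-labelled against control cells (-0.13 as reported) and to -0.18 in IRF8-labelled against KLF4-labelled cells (-0.01 as reported; -0.17 with median scaling), 4620 genes were called in IRF8-labelled against control cells, and 14 of the wider list and 2729 of all genes in IRF8-labelled against KLF4-labelled cells. The replicate block changed no other call of a member but Lta4h in KLF4-labelled against control cells.

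Ptges changed sign in IRF8-labelled against control cells with spike-in scaling (-0.0036) and in KLF4-labelled against control cells with quantile normalization (0.070), median scaling (0.048), the mean of its probes (0.33) and without KLF4 replicate 2 (0.067, with -0.168 the lowest without an array). Klf4 in KLF4-labelled against control cells changed sign with normexp (-0.045), and lay between -0.165 and 0.174 without an array. The cause was not tested. Without an array the other counts were 6 to 6, 32 to 34 and 6708 to 7719 in IRF8-labelled against control cells, and 6 to 7, 20 to 27 and 4656 to 6489 in IRF8-labelled against KLF4-labelled cells, for members, wider list and all genes. Signals of Alox5, Hpgds, Alox15 and Ptgs2 lie at or under background on most arrays, so their low values have no order.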
